A study of Mus musculus with 6 samples.

Results

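The coinhibitory receptor genes Pdcd1, which encodes PD-1, Tigit, Cd101, Lag3 and Havcr2, which encodes TIM-3, were followed through 6 single-cell RNA-seq libraries of T lymphocytes sorted from mouse kidney. They are 5 of the 32285 features in each matrix. The genes were picked by symbol after their levels and their change with ischemia were known, so the levels, ratios and co-detection given here describe these libraries and carry no test. All libraries came from male wild-type C57BL/6J mice aged 7 to 8 weeks, and no group carried a transgene or deletion. Control kidneys were normal, and ischemia–reperfusion (IR) kidneys came from mice whose renal pedicles were both clamped for 30 min and then released. Live CD45+ TCRβ+ cells were sorted into CD4+, CD8+ and double negative (DN) cells, the last carrying neither CD4 nor CD8, which gave 1 control and 1 IR library of each subset. With 1 library per group no p-value can be had, and how many mice went into a library and how long after clamping these kidneys were taken are not given in the sources used here.

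Coinhibitory receptors are surface proteins that T cells acquire after they recognise antigen, and they dampen signalling through the T cell receptor when a ligand binds. PD-1 binds PD-L1 and PD-L2 and recruits the phosphatase SHP2, TIGIT competes with the activating receptor CD226 for the nectin family ligand CD155, LAG-3 binds MHC class II, TIM-3 has several ligands including galectin-9, and CD101 is an immunoglobulin superfamily protein that lowers T cell activation. Cells that see antigen for long periods often carry several of these receptors together, and the transcription factors TOX and NFAT are known to act on that programme. Regulatory T cells are known to carry TIGIT, and resident memory T cells of several tissues carry PD-1 or CD101.

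The members lie on 5 chromosomes of the mm10 assembly, and none overlaps another annotated gene on either strand. Pdcd1 (ENSMUSG00000026285) lies on the minus strand of chromosome 1 from 94038305 to 94052553 with 5 exon blocks (exons merged over transcripts). Tigit (ENSMUSG00000071552) lies on the minus strand of chromosome 16 from 43648867 to 43664146 with 4 exon blocks. Cd101 (ENSMUSG00000086564) lies on the minus strand of chromosome 3 from 100993529 to 101029556 with 10 exon blocks. Lag3 (ENSMUSG00000030124) lies on the minus strand of chromosome 6 from 124904361 to 124911705 with 9 exon blocks. Havcr2 (ENSMUSG00000020399) lies on the plus strand of chromosome 11 from 46454935 to 46481255 with 7 exon blocks. The reads were captured at the 3′ end, so the counts are per gene, do not tell isoforms apart, and are compared between libraries for one gene and not between genes.

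The 250 bases before the start of Tigit and of Cd101 are printed because these 2 genes moved together across the libraries, and those of Pdcd1 because it did not move with them in DN cells. The sequences are from RefSeq on GRCm38.p6, given 5′ to 3′ along the strand of the gene, and capitals mark matches, on either strand, to the NFAT core GGAAA and to the RUNX core, which reads TGTGGT.
Tigit, chr16:43664185-43664434, minus strand: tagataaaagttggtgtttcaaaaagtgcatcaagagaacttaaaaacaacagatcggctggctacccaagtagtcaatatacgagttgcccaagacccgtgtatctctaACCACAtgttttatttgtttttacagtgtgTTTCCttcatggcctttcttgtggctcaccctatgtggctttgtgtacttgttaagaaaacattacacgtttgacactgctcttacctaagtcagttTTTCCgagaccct
Cd101, chr3:101029554-101029803, minus strand: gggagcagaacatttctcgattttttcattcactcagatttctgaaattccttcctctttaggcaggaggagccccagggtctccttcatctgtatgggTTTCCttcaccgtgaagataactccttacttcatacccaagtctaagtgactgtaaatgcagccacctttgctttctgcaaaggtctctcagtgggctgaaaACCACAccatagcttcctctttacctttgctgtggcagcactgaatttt
Pdcd1, chr1:94052554-94052803, minus strand: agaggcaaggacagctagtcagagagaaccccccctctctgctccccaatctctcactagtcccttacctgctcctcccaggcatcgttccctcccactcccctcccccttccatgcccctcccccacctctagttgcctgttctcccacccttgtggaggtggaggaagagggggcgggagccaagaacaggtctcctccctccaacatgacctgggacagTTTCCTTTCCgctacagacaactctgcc
Tigit held 2 NFAT cores and 1 RUNX core, Cd101 held 1 of each, and Pdcd1 held 2 adjacent NFAT cores and no RUNX core. None of the 3 held the AP-1 motif TGANTCA, and no match overlapped another. Of 32851 RefSeq promoters of the same length, 55.6% held the NFAT core, 14.05% the RUNX core and 6.75% the AP-1 motif, so an NFAT core is what most promoters hold. Havcr2 held 1 AP-1 motif and 1 RUNX core and no NFAT core. A match of so few letters is a description of the sequence and not a binding site.

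After filtering, the control libraries held 9206 CD4+, 9291 CD8+ and 8897 DN cells and the IR libraries 10108, 6361 and 4072. The control cells were deeper, with a median of 4960 to 6563 retained UMIs (unique molecular identifiers, each a captured RNA molecule) per cell against 936 to 1425 in the IR cells. Mitochondrial, ribosomal protein and Malat1 UMIs, left out of the totals, were 21.0 to 26.6% of UMIs in control and 30.4 to 45.1% in IR. The sort markers followed the labels, with Cd4 at 210 and 146 CPM (UMIs per 1000000 retained UMIs) in the CD4+ libraries and under 0.5 CPM in the others, and Cd8a at 868 and 396 CPM in the CD8+ libraries and under 0.3 CPM in the others. Cd8b1 stood at 1372 and 1086 CPM in the CD8+ libraries and 1.33 to 6.21 CPM in the others. Between 0.624 and 1.77% of a library's cells had a barcode that also occurred in another library of its condition. Ccr7, the lymph node homing receptor of naive and recirculating T cells, went from 32.9 to 246 CPM with IR in CD4+ and from 85.3 to 699.9 CPM in CD8+ cells, and stayed under 10 CPM in DN cells (0.741 and 8.36). Of the related markers, Klf2 had a log2 ratio of 2.28 in CD4+, 2.30 in CD8+ and 1.54 in DN cells, S1pr1 had 2.06, 1.82 and 0.26, and Lef1 had -0.07, 0.25 and -0.48. The 6 tissue residency markers (Itgae, Itga1, Cd69, Cxcr6, Rgs1, Cd44) had 2600, 2421 and 3091 CPM in the control libraries and 1989.7, 1396 and 2901 CPM in the IR libraries. The sums hold opposite courses, since in DN cells Cxcr6 went from 1168 to 474 CPM and Itga1 from 396 to 136 CPM while Rgs1 went from 757 to 1605 CPM. The 28 markers of non-T lineages summed to 129 to 153 CPM in control and 172 to 207 CPM in IR, with 3 to 9 of them at 0. The part of these shifts in the receptor values was not tested. A lower CPM can mean fewer cells with the RNA or less RNA per cell, which cannot be told apart in the sums, and all intervals cover counting error only and not the spread between mice.

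All 5 receptors had their highest or second highest level in normal CD8+ cells. Pdcd1 stood at 64.6 CPM (95% Poisson interval 62.3–67.0) in control CD8+ cells, at 29.9 (28.4–31.5) in control CD4+ and at 24.8 (23.5–26.0) in control DN cells. After IR it stood at 28.9 (26.3–31.7) in CD4+, 21.3 (17.9–25.1) in CD8+ and 23.7 (19.4–28.7) in DN cells. Control CD8+ cells therefore stood apart from the other 5 libraries, which all lay between 21.3 and 29.9 CPM, and neighbours in the order overlapped apart from IR CD4+ and control DN cells, whose intervals missed each other by a small margin.

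Tigit and Cd101 had another order, with IR DN cells at the top and control DN cells at the bottom. Tigit stood at 16.3 CPM (15.2–17.5) in control CD4+, 31.3 (29.7–32.9) in control CD8+ and 9.20 (8.46–10.0) in control DN cells, and at 29.1 (26.5–31.9), 15.1 (12.3–18.4) and 36.4 (31.0–42.4) in the same subsets after IR. The intervals of IR DN, control CD8+ and IR CD4+ cells overlapped their neighbours, as did those of control CD4+ and IR CD8+ cells, and control DN cells lay below all others. Cd101 stood at 16.2 CPM (15.1–17.4) in control CD4+, 32.6 (31.0–34.3) in control CD8+ and 10.9 (10.1–11.7) in control DN cells, and at 26.5 (24.0–29.2), 11.6 (9.09–14.5) and 36.8 (31.4–42.9) after IR. Its order was that of Tigit, with overlapping intervals between IR DN and control CD8+ cells and between IR CD8+ and control DN cells.

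Lag3 and Havcr2 were largely receptors of the CD8+ libraries. Lag3 stood at 28.4 CPM (26.9–30.0) in control CD8+ cells and 11.4 (8.95–14.3) in IR CD8+ cells. In the other libraries it stood at 5.04 in control CD4+, 3.61 in control DN, 2.85 (2.07–3.82) in IR CD4+ and 1.13 (0.367–2.64) in IR DN cells, the last from 5 UMIs. Havcr2 stood at 17.5 CPM (16.3–18.8) in control CD8+ and 4.93 (3.37–6.96) in IR CD8+ cells. Elsewhere Havcr2 was low, with 1.45 CPM in control CD4+ and 0.905 in IR CD4+ cells, and 0.280 (0.163–0.448) in control DN and 0.452 (0.0547–1.63) in IR DN cells, from 17 and 2 UMIs. Most positive cells carried a single UMI, but a few held many, with up to 21 Pdcd1 UMIs in 1 control DN cell, 20 in 1 control CD8+ cell and 17 Lag3 UMIs in 1 control CD4+ cell.

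**Figure D1:**
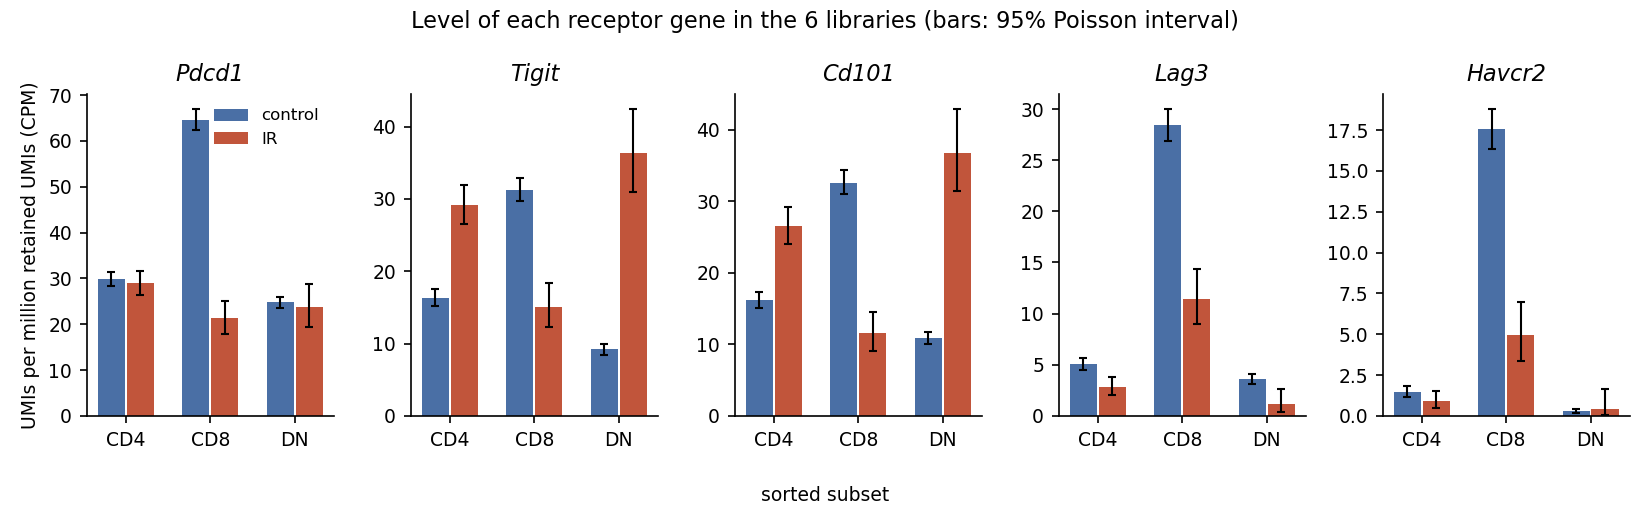
Level of each receptor gene, in CPM (y axis, one scale per gene), in the sorted CD4, CD8 and DN cells (x axis) of control (blue) and IR (red) kidneys, with 1 library per bar and lines for the 95% Poisson interval. Control CD8 cells have the tallest bar for Pdcd1 (64.6), Lag3 (28.4) and Havcr2 (17.5), while for Tigit (36.4) and Cd101 (36.8) the tallest bar is that of IR DN cells.

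The first comparison the design sets is IR against control within each subset. In CD8+ cells all 5 receptors were lower after IR by at least 2-fold, the size used here to call a difference in genes with at least 10 CPM in the higher library. The log2 ratio of IR over control was -1.60 for Pdcd1 (95% interval -1.86 to -1.36, a 3.04-fold lower level), -1.05 for Tigit (-1.36 to -0.75), -1.50 for Cd101 (-1.85 to -1.16), -1.32 for Lag3 (-1.68 to -0.98) and -1.83 for Havcr2 (-2.39 to -1.32, 3.56-fold). Of 9152 genes with at least 10 CPM in CD8+ cells, 17.2% were called lower and 8.28% higher, and the median of all genes was -0.37. The call of Tigit, the smallest of the 5, was lost when ratios were centred on genes of like intronic length, which gave -0.75, and 4 genes were then called.

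In DN cells the receptors went separate ways. Tigit was 3.95-fold higher (log2 ratio 1.98, 1.72 to 2.24) and Cd101 3.39-fold (1.76, 1.50 to 2.01), whereas Pdcd1 differed by less than its counting error (-0.06, -0.36 to 0.22). Lag3 had a ratio of -1.67 (-3.31 to -0.43) and Havcr2 of 0.69 (-2.47 to 2.77), both from libraries under 10 CPM and so not called. Of 9260 genes in DN cells 8.87% were called higher and 10.6% lower.

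In CD4+ cells none of the 5 was called. Tigit had a log2 ratio of 0.83 (0.66 to 1.001) and Cd101 of 0.71 (0.53 to 0.88), both higher after IR beyond counting error and under 2-fold, and Pdcd1 one of -0.05 (-0.21 to 0.10). Cd101 passed 2-fold, at 1.17, when ratios were centred by intronic length. Lag3 (-0.83, -1.32 to -0.36) and Havcr2 (-0.68, -1.62 to 0.16) stayed under 10 CPM in both CD4+ libraries. Of 9041 genes 7.81% were called higher and 14.9% lower in CD4+ cells.

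The opposite course in DN and CD8+ cells was rare among genes. Of 8785 genes with at least 10 CPM in both comparisons, Cd101 and Tigit were the only ones called higher with IR in DN cells and lower in CD8+ cells, and Gm13842 was the only one called in the reverse directions. The pair was known to do so when the members were picked, so the count describes them and gives no support.

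**Figure D2:**
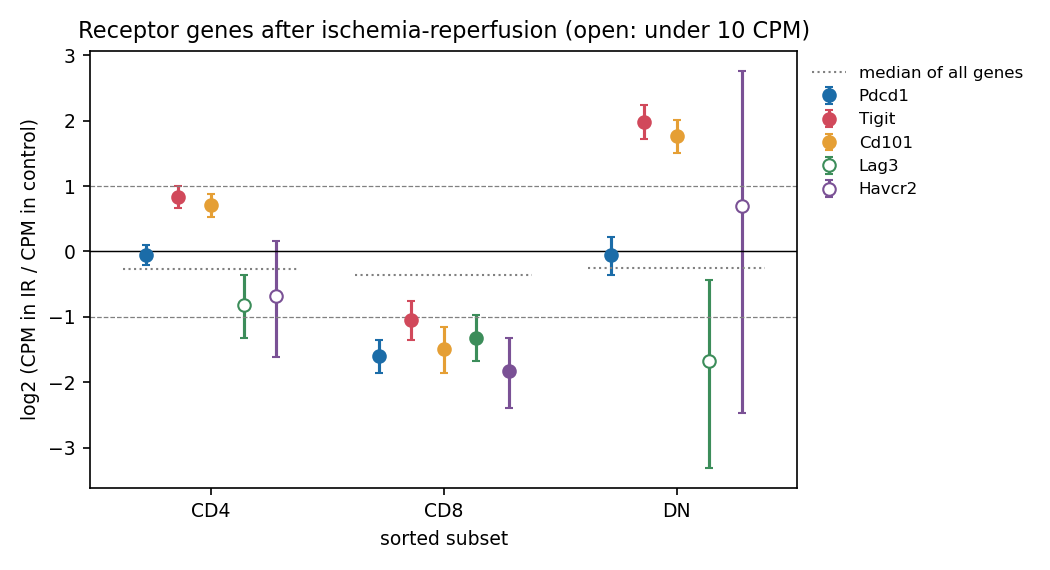
Log2 ratio of the level in IR over control (y axis) of each receptor gene in CD4, CD8 and DN cells (x axis), with lines for the 95% interval from counting error, open points for genes under 10 CPM in both libraries, dashed lines at 2-fold and a dotted line at the median of all genes. All 5 points lie below the lower dashed line in CD8 cells, while Tigit (1.98) and Cd101 (1.76) lie above the upper one in DN cells.

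The second comparison is between the sorted subsets. In normal kidney, DN cells had less of all 5 receptors than CD8+ cells, with log2 ratios of -1.38 for Pdcd1, -1.76 for Tigit, -1.59 for Cd101, -2.98 for Lag3 and -5.97 for Havcr2, where 3.03% of 8967 genes were called lower and 3.54% higher. Control CD8+ cells also had more Pdcd1 (1.11), Cd101 (1.01), Lag3 (2.50) and Havcr2 (3.60) than control CD4+ cells, and Tigit lay just inside 2-fold at 0.94, with 1.77% of 8913 genes called higher and 2.61% lower. With the top 5% of barcodes kept, Pdcd1 (0.88) and Cd101 (0.97) fell under 2-fold and Lag3 and Havcr2 remained called. Between control DN and control CD4+ cells no member was called, with ratios from -0.27 for Pdcd1 to -0.83 for Tigit among the 4 genes other than Havcr2 (-2.37, under 10 CPM), and 1.36% of 8856 genes were called higher and 1.38% lower.

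After IR this order was turned for Tigit and Cd101. IR DN cells had more Tigit (1.27) and Cd101 (1.67) than IR CD8+ cells, less Lag3 (-3.34), and a level of Pdcd1 within its counting error (0.16, -0.22 to 0.53). Of 9061 genes 7.63% were called higher and 4.04% lower in IR DN than in IR CD8+ cells. IR DN and IR CD4+ cells did not differ by 2-fold in Pdcd1 (-0.29), Tigit (0.32) or Cd101 (0.47), where 5.29% of 8966 genes were called higher and 2.25% lower. IR CD8+ cells had more Lag3 (2.00) and less Cd101 (-1.20) than IR CD4+ cells, with 4.07% of 8797 genes called higher and 3.47% lower, and Tigit again fell just short at -0.95. The Lag3 calls of IR CD8+ cells rest on 11.4 CPM, close to the 10 CPM minimum, and both were lost when mitochondrial, ribosomal and Malat1 UMIs were kept in the totals.

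To compare cells at one depth, each cell was thinned to 500 retained UMIs. At that depth 3.34% of control CD8+ cells had a Pdcd1 UMI and 1.01% of IR CD8+ cells, a 3.32-fold difference. The other receptors were also found in fewer CD8+ cells after IR, with 1.61% against 0.613% for Tigit, 1.66% against 0.613% for Cd101, 1.41% against 0.535% for Lag3 and 0.904% against 0.252% for Havcr2. In DN cells the share with Tigit went from 0.438% to 1.84% and that with Cd101 from 0.607% to 2.09%, while Pdcd1 was found in 1.12% and 1.08%. In CD4+ cells Tigit was found in 0.945% before and 1.53% after IR, Cd101 in 0.826% and 1.43%, and Pdcd1 in 1.38% and 1.36%. Lag3 was lower, with 0.282% (0.185–0.414) and 0.0791% (0.0342–0.156) in CD4+ cells and 0.214% and 0.0491% in DN cells, the last from 2 cells. Its shares lay closer together as a mean over all draws, at 0.211% and 0.136% in CD4+ and 0.138% and 0.0726% in DN cells.

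Counting any of the 5 receptors, control CD8+ cells led with 8.34% and control DN cells came last with 2.34%, and after IR CD8+ cells had 2.91%, CD4+ cells 4.32% (3.94–4.74) and DN cells 4.96% (4.31–5.67). The IR CD4+ and DN intervals overlapped, and their order turned at 1000 UMIs per cell, with 7.42% and 6.99%. Control CD4+ cells had 3.35% at 500 UMIs. Without thinning the shares in CD4+, CD8+ and DN cells were 21.3%, 38.1% and 18.1% in normal kidney and 10.8%, 5.63% and 9.11% after IR, so the direction in CD4+ and DN cells turned with depth per cell, and unthinned shares are not read as a change.

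A share of cells with a UMI includes RNA taken up from the suspension. Naive and recirculating cells, marked by Ccr7, were taken as the nearest to such a background at the same depth. In control CD4+ cells at 3000 UMIs, 457 cells with Ccr7 held less Pdcd1 (1.97% against 6.43% of the rest) and Tigit (1.53% against 4.53%). Cd101 was not detectably lower there (3.72%, 2.18–5.89, against 4.35%), so its share in CD4+ cells with Ccr7 may not be background. Among IR CD8+ cells with a Ccr7 UMI, 0.243% had Pdcd1, 0.365% Tigit, 0.304% Cd101, 0.0609% Lag3 and 0.122% Havcr2 (1643 cells), and among IR CD4+ cells with one, 0.382% had Pdcd1, 0.191% Tigit and 0.287% Cd101 (1047 cells). Over all IR CD4+ cells the shares of Pdcd1, Tigit and Cd101 lay above the intervals of the Ccr7 cells, as did those of Pdcd1 and Lag3 over all IR CD8+ cells. The shares of Tigit, Cd101 and Havcr2 over all IR CD8+ cells were higher than in the Ccr7 cells but within their intervals (0.134–0.793%, 0.0989–0.709% and 0.0147–0.439%). In the DN libraries only 3 control and 12 IR cells had a Ccr7 UMI, too few for a background. The barcodes removed as non-T, 16 to 104 per library, held 0 to 9 UMIs of each member, which is too few to place their level.

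Cells with a Ccr7 UMI were 366 of 9291 control CD8+ cells and 1643 of 6361 IR CD8+ cells, and the receptors were also read within gates. A cell without a Ccr7 UMI at this depth need not lack Ccr7, since in control CD8+ cells the gene was found in 951 of 6714 cells at 3000 UMIs, so the gate without it still holds such cells, and their part in the values below was not tested. Among CD8+ cells without a Ccr7 UMI, Pdcd1 was found in 3.45% of control and 1.27% of IR cells, Tigit in 1.68% and 0.699%, Cd101 in 1.69% and 0.721%, Lag3 in 1.45% and 0.699%, and Havcr2 in 0.930% and 0.297%. The intervals of control and IR cells did not overlap for any of the 5. Among CD8+ cells with a UMI of Cxcr6, a chemokine receptor of tissue resident T cells, Pdcd1 was found in 4.27% (3.55–5.10) of 2761 control cells and 3.19% (1.71–5.40) of 407 IR cells. The other 4 receptors were lower there too, with 2.03% and 0.983% for Tigit, 2.10% and 1.47% for Cd101, 1.38% and 0.491% for Lag3, and 1.09% and 0.737% for Havcr2, but all 5 intervals overlapped. At this depth and with 2 to 13 positive IR cells per gene, a difference among Cxcr6 cells was not detectable.

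**Figure D3:**
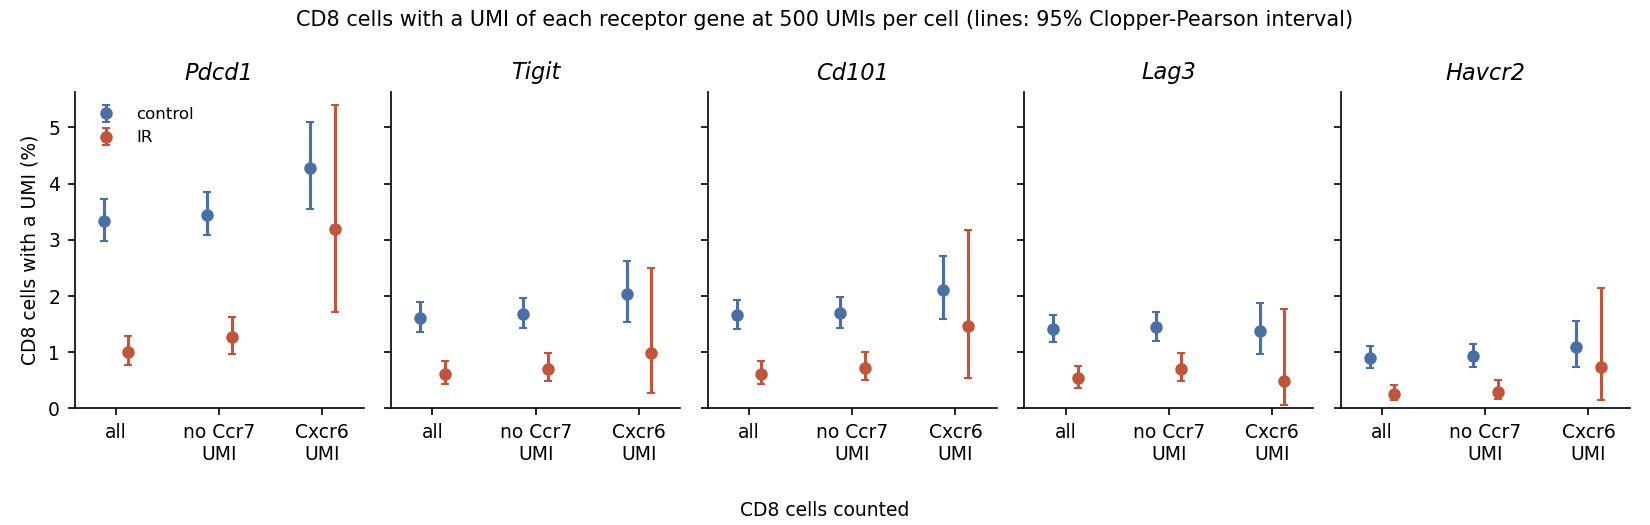
Share of CD8 cells with a UMI of each receptor gene after thinning to 500 UMIs per cell (y axis, percent), over all cells, cells with no Ccr7 UMI and cells with a Cxcr6 UMI (x axis), for control (blue) and IR (red), with lines for the 95% Clopper-Pearson interval. The red points lie below the blue ones in every column, with intervals apart in all cells and in cells with no Ccr7 UMI and overlapping in cells with a Cxcr6 UMI.

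The DN cells with Tigit and Cd101 after IR were spread over the DN gates. Tigit was found in 1.51% of 398 IR DN cells with a UMI of Klrb1c, the natural killer receptor NK1.1, in 1.03% of 388 cells with a UMI of Fcer1g, an Fc receptor signalling chain, and in 1.26% of 796 cells with a Cxcr6 UMI, against 1.84% of all IR DN cells. Cd101 was found in 1.76%, 2.32% and 2.64% of the same gates and 2.09% of all. The intervals of all 6 gate values overlapped those of the cells outside the gate, so a difference between a gate and the rest was not detectable with 4 to 21 positive cells per gate. In control DN cells Tigit was found in 0.230% of Klrb1c cells, 0.594% of Fcer1g cells and 0.400% of Cxcr6 cells, each below the value of the same gate after IR, with overlapping intervals. Cd101 was found there in 0.345%, 0.743% and 0.480%, and its intervals before and after IR were apart in the Cxcr6 gate (0.285–0.758% and 1.64–4.00%) and overlapped in the other gates. A like share in every gate is also what RNA from the suspension gives, and its part in these values was not tested.

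In the deeper control libraries cells could be compared at 3000 UMIs, which kept 7562 CD4+, 6714 CD8+ and 8363 DN cells. In control CD8+ cells all 5 receptors were rarer in the 951 Ccr7 cells than in the rest, from 2.94% against 16.5% for Pdcd1 and 0.421% against 4.89% for Havcr2 to 3.58% against 9.61% for Cd101. They were more frequent in the 4739 cells with Cxcr6 than in the 1975 without, at 18.1% and 6.13% for Pdcd1, 9.60% and 4.96% for Tigit, 10.5% and 4.66% for Cd101, 8.21% and 4.66% for Lag3, and 5.28% and 1.82% for Havcr2. The Cxcr6 cells of the other control libraries did not hold more, with Tigit in 3.68% against 6.11% and Havcr2 in 0.219% against 0.866% in CD4+ cells, and Lag3 in 0.513% against 2.52% in DN cells. Within the control CD8+ library, cells with a UMI of Itgae, the CD103 integrin of epithelial resident T cells, held fewer of the receptors. Of 398 such cells 7.04% had Pdcd1, 5.28% Cd101 and 3.27% Lag3 against 15.1%, 8.98% and 7.41% of the rest, and Tigit (5.28% and 8.42%) and Havcr2 (2.01% and 4.40%) were also lower there, with overlapping intervals. Of 327 cells with a UMI of Mki67, a marker of dividing cells, 22.6% had Pdcd1, 14.1% Cd101, 11.3% Lag3 and 8.87% Havcr2 against 14.2%, 8.49%, 6.95% and 4.02% of the rest, while Tigit was found in 8.26% and 8.24%.

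In control CD4+ cells Tigit, Cd101, Lag3 and Havcr2 were more frequent in the 230 cells with a UMI of Foxp3, the transcription factor of regulatory T cells, which held 35 of the 329 Tigit cells. Tigit was found in 15.2% of these against 4.01% of other CD4+ cells, Cd101 in 9.13% against 4.16%, Lag3 in 4.78% against 0.777%, Havcr2 in 5 cells (2.17%, 0.710–5.00) against 0.341%, and Pdcd1 in 8.70% against 6.08% with overlapping intervals. The 99 CD4+ cells with an Itgae UMI also held more, with Tigit in 14.1% against 4.22%, Cd101 in 14.1% against 4.18%, Lag3 in 10.1% against 0.777% and Havcr2 in 6.06% against 0.322%. The 657 CD4+ cells with Klrb1c held fewer, with 1.83% against 6.57% for Pdcd1, 1.52% against 4.62% for Tigit and 2.44% against 4.49% for Cd101. No Lag3 UMI was found in them, against 0.985% of the rest, and the Clopper-Pearson upper limit of 0.560% is on cells with a UMI and not on cells that express Lag3. Control DN cells with Klrb1c also had less Pdcd1, 2.71% of 2730 cells against 6.09% of the rest, but not less Cd101, 3.19% against 2.73%. The 200 control DN cells with Mki67 had Pdcd1 in 17% against 4.69% of the rest and Tigit in 6.5% against 2.45%. Cd101 was found in 3 of them (1.5%, 0.310–4.32) against 2.92% of the rest, with overlapping intervals.

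Co-detection at the same depth differed between the members. In control CD8+ cells Lag3 and Havcr2 were found together in 71 cells, 3.47 times (2.71–4.37) the number expected from their separate shares. Pdcd1 was found with Lag3 in 179 cells (2.55 times, 2.19–2.95) and with Havcr2 in 109 (2.61 times, 2.14–3.15), so that 37.2% of Lag3 cells had Pdcd1. Tigit lay between, at 1.86 times with Pdcd1, 2.17 with Lag3 and 2.00 with Havcr2. Cd101 had lower ratios with the other receptors, at 1.34 times with Pdcd1 (1.11–1.61), 1.32 with Tigit (1.02–1.69), 1.31 with Lag3 (0.984–1.70) and 0.759 with Havcr2 (0.457–1.18). No doublet caller was run, and the part of doublets in these pairs was not tested.

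The other control libraries had fewer cells with each pair. In CD4+ cells Pdcd1 and Lag3 were found together in 20 cells (4.77 times expectation, 2.92–7.37), Tigit and Lag3 in 13 (4.39 times), and Tigit and Cd101 in 26 (1.83 times, 1.20–2.69). In DN cells 23 of 62 Lag3 cells also had Pdcd1 (7.44 times, 4.72–11.2), 7 had Tigit (4.43 times, 1.78–9.13), and Tigit and Cd101 shared 8 cells (1.30 times, 0.563–2.57). Of the 10 pairs, the interval lay above 1 in 8 in CD4+, 8 in CD8+ and 2 in DN cells. The IR cells were too shallow to follow this, since at 500 UMIs a pair was found in 0 to 4 cells per library, with 4 for Tigit and Cd101 in CD4+ (1.80 times, 0.490–4.61) and in DN cells (2.55 times, 0.696–6.54). Tigit and Cd101, which moved together across libraries, were found in the same control cells at 1.30 to 1.83 times the expected number at 3000 UMIs, with Cd101 in 7.90% of Tigit cells and 4.15% of other CD4+ cells, 11.6% and 8.51% in CD8+ and 3.76% and 2.86% in DN cells. In control CD4+ cells that ratio was 2.78 (1.12–5.73) at 1000 UMIs, on 7 cells, and 2.00 (1.61–2.46) with no thinning.

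**Figure D4:**
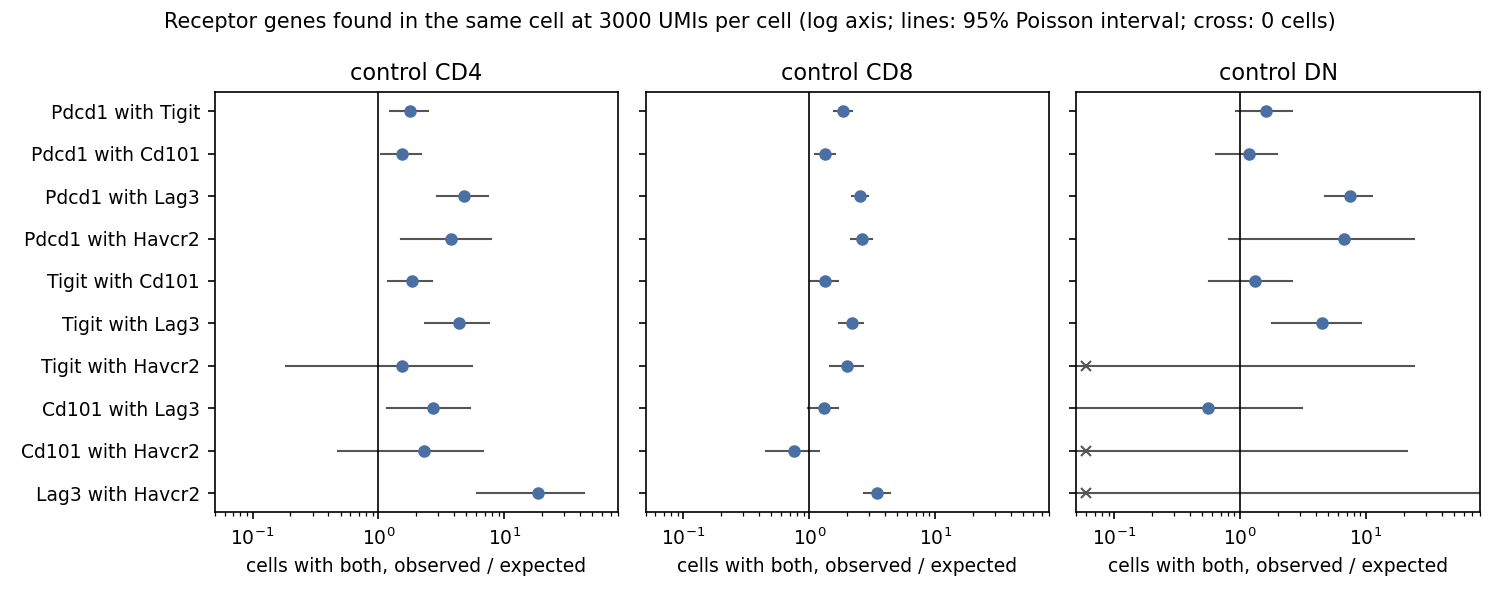
Number of cells with both genes of a pair over the number expected from their separate shares (x axis, log scale) for the 10 pairs of receptor genes (y axis) in the 3 control libraries at 3000 UMIs per cell, with lines for the 95% Poisson interval and crosses for pairs with 0 cells. In control CD8 cells the pair of Lag3 and Havcr2 lies farthest to the right (3.47) and that of Cd101 and Havcr2 farthest to the left (0.759).

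The cells that carried the receptors differed from the rest in other genes in the same graded way. Among control CD8+ cells, Tox, a transcription factor of chronically stimulated T cells, was found in 83.5% of cells with Pdcd1 and 57.2% of cells without, in 84.2% and 59.3% for Lag3, 83.6% and 60.1% for Havcr2, 77.8% and 59.6% for Tigit, and 64.5% and 60.7% for Cd101. Tcf7, which encodes the TCF1 factor of naive and stem-like memory cells, went the other way, with 24.9% against 50.7% for Pdcd1, 21.8% against 48.9% for Lag3, 15.4% against 48.3% for Havcr2, 30.9% against 48.4% for Tigit and 39.1% against 47.7% for Cd101. Entpd1, which encodes the ectonucleotidase CD39, was found in 47.2% of Havcr2 cells and 20.9% of the rest. Cd101 cells differed least from their complement in Tox, Tcf7, Maf, Ctla4 and Entpd1.

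The genes most enriched in receptor cells, by ratio of shares, were named by rule in each library, up to 5 for each member. Rgs16, a regulator of G protein signalling, was among the first 5 for Pdcd1 in all 3 control libraries, at 10.5% against 2.83% in CD8+, 10.9% against 2.24% in CD4+ and 10.6% against 1.25% in DN cells. Pdcd1 cells of the CD4+ and DN libraries also held more Nrp1, the neuropilin-1 coreceptor, at 36.5% against 11.7% and 25.4% against 4.81%. Tigit cells of the CD4+ library had as leading genes Foxp3 at 10.6% against 2.70%, Tnfrsf4, which encodes OX40, at 22.5% against 7.71%, Ctla4 at 32.5% against 13.5%, 4930417O13Rik and Capg. Tnfrsf4 was also among the first 5 of Pdcd1 cells, with Rgs16, Nrp1, Alcam and Serpina3f, and of Cd101 cells, with Sdcbp2, Wdr11, Plcl1 and Cd86, in that library. In the CD8+ library, Rgs16, Setbp1 and Ier5l led for both Pdcd1 and Lag3 cells beside other receptors, while Havcr2 cells had Lag3, 2900026A02Rik, Setbp1, Rgs16 and Adap1, and Tigit cells Lag3, Setbp1, Cables1, Pdgfb and Pdcd1. In the DN library Pdcd1 cells also had Serpina3f, Ctla4 and Serpina3g, Tigit cells Cers6, Gas7, Lyn, Cyth3 and Socs6, and Cd101 cells Gas7, Gbp3, Sdhaf1, Pde12 and Klra7.

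Il21, a cytokine gene of helper T cells, and Rgs16 were among the leading genes of Lag3 cells in both the control CD4+ and the control DN library. Of 68 Lag3 cells in control CD4+, 13.2% had Il10, which encodes an anti-inflammatory cytokine, and 14.7% Il21 against 0.534% and 0.627% of the other cells, and the other leading genes were Itgb8 and Rasgef1a. Of 62 Lag3 cells in control DN, 12.9% had Il21 against 0.530%, and 25.8% had Rgs16 against 1.53%, beside Vdr, Plekho1 and Ifi211. Cd101 cells had no gene at a high ratio in the CD8+ library, where the leading gene was Chn2 at 35.4% against 21.4%, before Zfp426, Wdfy2, Camk2n1 and Dapk2. In IR DN cells the leading genes were Rnf111, Arid5a, Ramp3, Ass1 and Dcaf5 for Tigit (75 cells) and Trp53inp1, Senp2, Ube2w, Ankhd1 and Ep300 for Cd101 (85 cells), each found in 8 to 21 of the member's cells, and no gene stood in both lists.

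**Figure D5:**
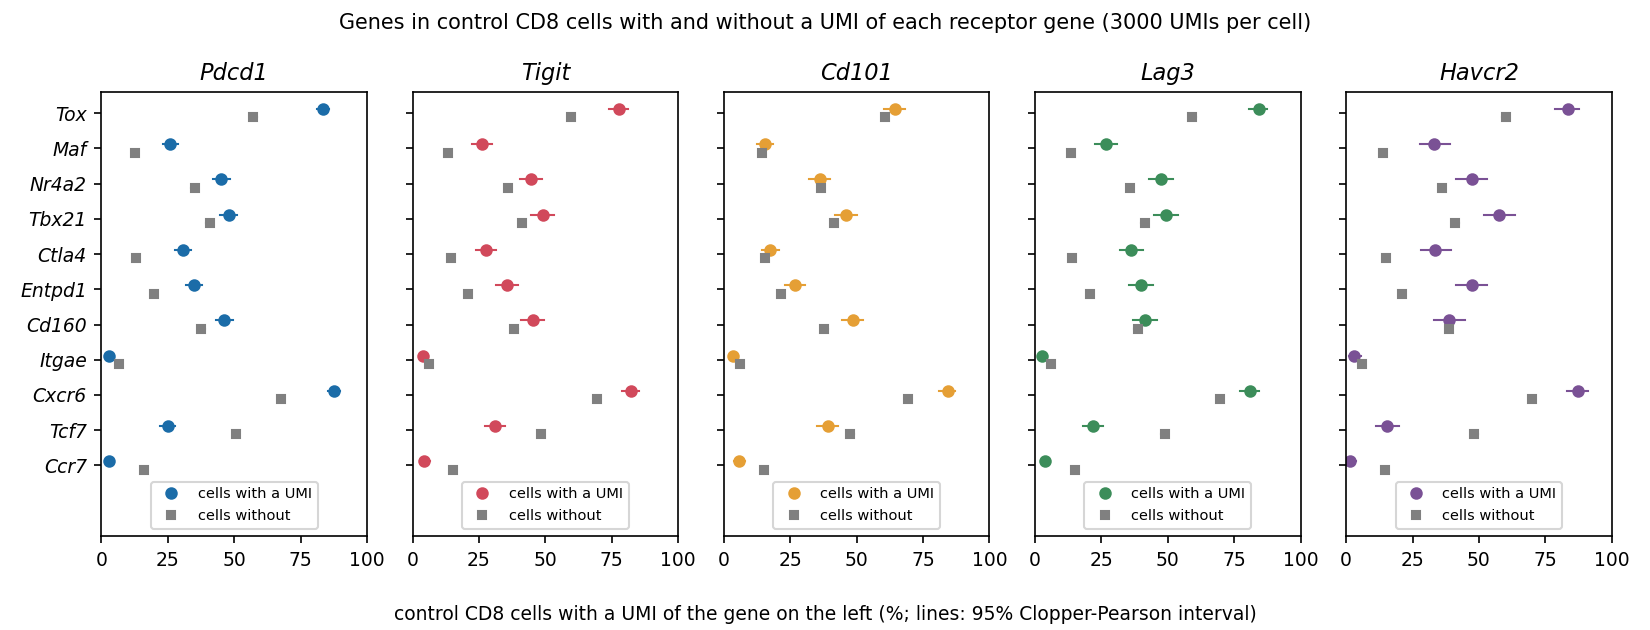
Share of control CD8 cells at 3000 UMIs per cell with a UMI of the gene on the y axis (x axis, percent), among cells with a UMI of the receptor gene named above each panel (coloured circles) and cells without one (grey squares), with lines for the 95% Clopper-Pearson interval. Circles lie far right of squares for Tox and far left for Tcf7 in Pdcd1 cells (83.5 and 57.2, 24.9 and 50.7), and close to them in Cd101 cells (64.5 and 60.7, 39.1 and 47.7).

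Over the 6 libraries Tigit and Cd101 were each other's closest gene among 9683, with a Pearson r of 0.964 of log2(CPM + 1). The next closest were Traf1 and Cdkn1b for Tigit (both 0.924) and Aen (0.963) and Plk4 (0.962) for Cd101. Lag3 and Havcr2 had r = 0.950, while Tigit and Lag3 had -0.04. The closest genes of Pdcd1 were Srsf7, Glod4 and H2-M3, those of Lag3 Ankrd10, Orc6 and Bid, and those of Havcr2 Agpat4, Ms4a4c and Hdgfl3, at 0.978 to 0.993. These values rest on 6 points that share condition, depth and software version, so a high r is easily reached among so many genes.

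Cd226, the activating receptor that competes with TIGIT for its ligand, was lower after IR in all 3 subsets. It stood at 1045 CPM in control CD4+, 853 in control CD8+ and 1218 in control DN cells and at 272, 237 and 442 CPM after IR, log2 ratios of -1.94, -1.85 and -1.46. Cd226 was thus lower in DN cells where Tigit was higher, and in CD8+ cells where Tigit was lower too. The costimulatory receptors Tnfrsf9 (4-1BB) and Tnfrsf4 (OX40) were higher in CD4+ (1.50 and 1.41) and DN cells (1.61 and 1.33), and in CD8+ cells they had 0.93 (0.73 to 1.13) and 0.94 (0.47 to 1.39), short of 2-fold. Tnfrsf4 was also under 10 CPM in both CD8+ libraries (4.18 and 8.01) and could not be called there. Cd40lg was lower in CD8+ cells (-1.63). Of 8 partner and opposing receptors 2 were thus higher and 1 lower in CD4+ cells (7.81% and 14.9% of all genes), 2 of 7 lower in CD8+ cells (17.2%), and 2 higher and 1 lower in DN cells (8.87% and 10.6%).

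Of 10 ligand genes, 6 had at least 10 CPM. Pdcd1lg2, which encodes PD-L2, was higher after IR in CD4+ (1.01) and DN cells (1.39), and Lgals9, which encodes the TIM-3 ligand galectin-9, was lower in all 3 subsets (-1.10, -1.08 and -1.11). Pvr, which encodes CD155, was lower in CD4+ cells (-1.08). Cd274, which encodes PD-L1, was not called in any subset, at -0.49, -0.32 and -0.20. These calls, 0 or 1 of 6 higher and 1 or 2 of 6 lower in a subset, stand beside 7.81 to 8.87% of all genes called higher and 10.6 to 17.2% called lower.

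A list of 16 other coinhibitory genes was read too, which counts Entpd1 although it encodes an ectonucleotidase and not a receptor. None of the 16 was called higher after IR, where 7.81% of all genes were in CD4+, 8.28% in CD8+ and 8.87% in DN cells. In CD8+ cells 6 of the 13 with at least 10 CPM were lower, namely Cd160 (-1.43), Cd244a (-2.26), Cd200r1 (-2.87), Cd5 (-1.35), Entpd1 (-1.83) and Lilrb4a (-1.02), with a list median of -0.996 against -0.37 over all genes. In DN cells 3 of 12 were lower, Cd244a (-2.36), Cd200r1 (-2.15) and Klrg1 (-1.22), and in CD4+ cells 2 of 12, Cd200r1 (-2.09) and Entpd1 (-1.27), with medians of -0.87 and -0.50. Over all genes 17.2% were called lower in CD8+, 10.6% in DN and 14.9% in CD4+ cells, so the 2 of 12 in CD4+ cells are near the share of all genes. Ctla4 was not called, at 0.82 in CD4+, 0.33 in CD8+ and 0.73 in DN cells. Lilrb4a in DN cells had 1.03 (0.47 to 1.55) at levels under 10 CPM.

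Of 16 transcription factors linked to these receptors, Nr4a1, an early response gene of T cell receptor signalling, was higher in all 3 subsets (2.41 in CD4+, 2.22 in CD8+ and 2.24 in DN cells) and Tox was lower in all 3 (-1.29, -1.83 and -1.78). Tbx21, which encodes T-bet, was also lower in all (-1.72, -1.82 and -1.33). Nr4a3 was higher in CD4+ (1.17) and DN cells (1.72), and Batf, an AP-1 family factor, in CD4+ (1.22) and CD8+ cells (1.11). Nr4a2 and Nfatc2 were lower in CD4+ (-1.19 and -1.05) and CD8+ cells (-1.42 and -1.30), Eomes (-1.08), Prdm1 (-1.26) and Maf (-1.21) in CD8+ cells, and Irf4 in DN cells (-1.12). In CD8+ cells 7 of 15 were lower and 2 higher, with a median of -0.93 against -0.37 over all genes, of which 17.2% were lower and 8.28% higher. In CD4+ cells 4 of 15 were lower and 3 higher (14.9% and 7.81% of all genes), and in DN cells 3 of 14 and 2 (10.6% and 8.87%).

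Of 9 signalling phosphatases and adaptors, Inpp5d, which encodes the SHIP1 phosphatase, was lower in CD4+ (-1.38) and CD8+ cells (-1.68), and Ptpn11, which encodes the SHP2 phosphatase that PD-1 recruits, in CD8+ (-1.06) and DN cells (-1.07). The adaptor Dok1 was lower in CD8+ cells (-1.09), and no gene of the list was higher. All lists together had 6 genes higher and 10 lower of 50 in CD4+ cells (12% and 20%, against 7.81% and 14.9% of all genes), 2 and 19 of 50 in CD8+ cells (4% and 38%, against 8.28% and 17.2%) and 5 and 9 of 49 in DN cells (10.2% and 18.4%, against 8.87% and 10.6%). Centring by intronic length gave 9 and 5 in CD4+, 6 and 11 in CD8+ and 6 and 6 in DN cells, and keeping mitochondrial, ribosomal and Malat1 UMIs gave 3 and 15, 1 and 26, and 5 and 15.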

How the data were processed

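The authors deposited 1 matrix of raw UMI counts per gene and cell for each of the 6 libraries, made from 10x Genomics 3′ libraries with Cell Ranger on mm10. Cell Ranger 5.0.1 is named in the headers of the control matrices and 6.0.1 in those of the IR matrices, while the labels give 6.0.1 throughout, so version and condition cannot be told apart. Cells had at least 500 features and at most 20% mitochondrial UMIs, the top 5% of barcodes by UMIs were removed per library as in the study, and 342 barcodes with more UMIs of 28 non-T lineage genes than of 6 T cell receptor genes were removed, which left 47935 of 54039. No doublet caller was run. Totals leave out mitochondrial genes, ribosomal protein genes and Malat1, and run from 4426221 to 60733414 retained UMIs per library, so a count of 0 allows up to 0.0494 to 0.678 CPM (3 counts).

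Counts were summed per library as CPM with exact 95% Poisson intervals, and ratios carry exact conditional intervals. A gene was called at 10 CPM or more in the higher library and a 2-fold difference or more. Shares of cells were taken after thinning to 500 retained UMIs per cell (seed 41), or 3000 in the control libraries, with Clopper-Pearson intervals. Expected co-detection is the product of both shares. Named were the 5 members, every called gene of the lists, the 3 genes with the highest Pearson r to each member, the 5 genes with the largest ratio of shares among genes in at least 10% of a member's cells (at least 50 such cells), and cells with a UMI of preset gate genes. The members and lists were chosen with earlier results of these data known. The summed list of naive and recirculating T cell markers is not reported here.

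Alternatives were TMM factors, other totals, cell filters, CPM minimums and depths, shared barcodes left out, and ratios centred in 20 bins of intronic length from the GENCODE annotation, which matched 32235 features. Promoters were matched by symbol, and 4 of the 5 members were found. Python 3.11.15, NumPy 2.4.6, SciPy 1.17.1, pandas 2.3.3, R 4.3.3 and edgeR 4.0.16 (for TMM factors alone) were used, and the calculations were tested on simulated data.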

Additional observations from a re-analysis of the deposited data

Results flagged for a closer look

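The change of Tigit and of Cd101 with IR went in opposite directions in CD8+ cells and in the other subsets, with intervals on opposite sides of 0. The log2 ratio of IR over control of Tigit was 3.03 higher in DN than in CD8+ cells and 1.88 higher in CD4+ than in CD8+ cells. For Cd101 these differences were 3.26 and 2.20. Each group is 1 library, so the differences were not tested.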

How the results depend on the processing

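No called log2 ratio of a member changed sign under the alternatives run, and of 291 counts recomputed 244 stayed within 1.5 times their value and 47 did not. Members called in IR against control went as follows. With ratios centred by intronic length 1 was higher in CD4+ cells (0 as reported). With a 50 CPM minimum 1 was lower in CD8+ (5) and 0 higher in DN cells (2), and with no minimum 1 was lower in DN cells (0). Between subsets, a 50 CPM minimum left 1 lower in control DN than CD8+ cells (5), 1 higher in control CD8+ than CD4+ cells (4), and 0 in either direction for IR DN or IR CD4+ against IR CD8+ cells. With no minimum 1 was lower in control DN than CD4+ cells, 2 lower in IR DN than CD4+, 2 lower in IR DN than CD8+ and 2 higher in IR CD8+ than CD4+ cells. Thinned cells gave 1 lower in control DN than CD4+ and 2 lower in IR CD8+ than CD4+ cells. The top 5% of barcodes kept, or no cell filters, gave 2 higher in control CD8+ than CD4+ cells (4). Removed features kept in the totals gave 0 lower in IR DN than CD8+ (1), and 0 higher and 2 lower in IR CD8+ than CD4+ cells (1 and 1).

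Of the listed genes, removed features kept in the totals gave 3 higher in CD4+ (6), 1 higher in CD8+ (2) and 15 lower in DN cells (9), and centring by intronic length gave 5 lower in CD4+ (10) and 6 higher and 11 lower in CD8+ cells (2 and 19). The median of all genes with IR went from -0.26, -0.37 and -0.25 in CD4+, CD8+ and DN cells to -0.63, -0.80 and -0.43 with those features and to -0.28, -0.31 and -0.36 with TMM factors. Members with a share of cells at least 2-fold lower after IR in CD4+ cells numbered 1 at 500 UMIs, 0 as a mean over all draws, 3 with no thinning and 0 at 1000 UMIs over all features. In DN cells they numbered 1, 0 as a mean over all draws and 3 with no thinning, and those at least 2-fold higher went from 3 to 0 with no thinning. These 3 were Tigit, Cd101 and Havcr2, and Havcr2 rests on 1 control and 2 IR cells, too few to read.

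Pairs of members found together above expectation depended on depth. At 500 UMIs, in the order CD4+, CD8+ and DN, the control libraries had 1, 3 and 1 such pairs and the IR libraries 1, 1 and 0. At 1000 UMIs there were 4 in control CD4+, 2 in control DN, 0 in IR CD8+ and 1 in IR DN cells, and at 3000 UMIs 8, 8 and 2 in the control libraries. With no thinning there were 10, 9 and 4 in control and 5, 4 and 2 in IR, and with shared barcodes left out 2 in control CD4+ cells. A mean over all draws gives no interval and so no such count. No paired analysis was possible because each group is 1 library and the labels give no replicate numbers to pair, and for the same reason no library could be left out. The causes of these changes were not tested. Depth limits Lag3 and Havcr2 in IR DN cells, at 5 and 2 UMIs, and all co-detection after IR.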

Other observations

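Other marker lists had these sums in the same libraries as the receptors. The 4 cycling genes Mki67, Top2a, Birc5 and Cdk1 summed to 103, 131 and 58.1 CPM in control CD4+, CD8+ and DN cells and to 31.9, 41.5 and 13.1 CPM after IR. The 4 regulatory T cell genes Foxp3, Ikzf2, Il2ra and Ctla4 summed to 576, 211 and 449 CPM in control and 528, 194 and 410 CPM after IR. Outside the CD4+ libraries these sums held almost no Foxp3. It had 4 UMIs in normal CD8+ cells and 4 in normal DN cells, and after IR 3 and 0 UMIs. Of the DN sums Ikzf2 made up 350 CPM before and 251 CPM after IR. Il2ra and Ctla4 had log2 ratios of 0.64 and 0.73 in DN cells. In CD4+ cells Ikzf2 alone was lower, at 375 and 201 CPM, while Foxp3, Il2ra and Ctla4 had log2 ratios of 0.64, 0.35 and 0.82, all under 2-fold, in the library where Tigit had 0.83. The 4 natural killer genes Ncr1, Klrb1c, Klre1 and Eomes summed to 76.1, 99.6 and 451 CPM in control and 93.4, 65.8 and 381 CPM after IR, highest in DN cells in both conditions. Eomes alone was highest in the CD8+ subset, at 60.2 CPM before and 28.5 CPM after IR. Its DN levels were 4.07 and 2.71 CPM. Within DN cells Klrb1c went from 209 to 228 CPM with IR, while Klre1 went from 223 to 143 CPM and Ncr1 from 15.3 to 6.55 CPM. The B cell gene Ms4a1 stood at 0.199, 0.286 and 0.362 CPM in control and 3.82, 14.02 and 16.3 CPM after IR. The 11 myeloid genes summed to 98.8 to 106 CPM in control and 133 to 160 CPM after IR, of which Cst3 alone held 88.1 to 98.5 and 121 to 135 CPM. The 4 antigen presentation genes Cd74, H2-Aa, H2-Ab1 and H2-Eb1 went from 49.6 to 38.7 CPM in CD4+, from 32.4 to 12.6 CPM in CD8+ and from 22.4 to 13.8 CPM in DN cells. The part of these lists in the receptor values was not tested.

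Cells of the IR CD4+ library with a Pdcd1 UMI held Ctla4 in 29.9% against 8.39% of the other cells at 500 UMIs, and their other leading genes were Nsmaf, Itgav, Tnfrsf4 and Jmjd6. Those of the IR CD8+ library held Ier5l in 10.9% (4.51–21.2) against 1.65%, before Lgals3, Abcb1a, Cxcr3 and Serpina3g. Each of these genes was found in only 7 to 12 of 64 Pdcd1 cells. In IR CD4+ cells the leading genes were Tspan14, Abcb1a, Itgav, Il18r1 and Tmem106b for Tigit (155 cells) and Krt83, Traf3, 4930453N24Rik, St6galnac3 and Rbl2 for Cd101 (145 cells). Ier5l was also among the leading genes of Pdcd1 cells in control CD8+ cells, at 24.2% against 8.96% at 3000 UMIs. Tox2, a relative of Tox, was found in 7.94% of control CD4+ cells with Pdcd1 against 1.72% without, and in 2.88% against 0.138% of control DN cells. Tox2 lies outside the rule for named genes and was chosen after its values were seen.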
